A study of Mus musculus with 40 samples.

Results

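The genes described are 8 markers of the striatum, which lies beside the amygdala, and of cholinergic neurons: Drd1, Drd2, Adora2a, Gpr6, Rgs9, Ppp1r1b, Slc5a7 and Chat. They were chosen by name and all 8 are among the 43629 genes of the count table. Expression was measured by RNA sequencing of hand-dissected left amygdala from male Swiss Webster mice of 10 weeks. Conventionally raised (CON), germ-free (GF) and ex-germ-free (exGF) mice were compared, either naïve or 1 hr after a 3-chamber social interaction (SI) test. CON mice were raised with a normal microbiota, GF mice lived in isolators without one, and exGF mice left the isolators after weaning and were kept on bedding used by CON mice. The naïve groups CON, GF and exGF had 4 libraries each, called P1 to P4. The groups after social interaction were CON-SI with 8 libraries, GF-SI with 12 and exGF-SI with 8, called S with a number.

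Each SI library held RNA of 1 animal. Each naïve library was a pool of 2 animals by the study's methods and of 2 to 3 by the labels, and its supplement lists GF-P2 as a single sample. SI mice were first habituated to the room and the arena, where they met an object as well as a mouse, and the handling of naïve mice is not described. Pooling, handling and social contact cannot be told apart in comparisons of SI with naïve mice. CON mice descend from other breeding pairs than GF and exGF mice, and breeding stock cannot be told apart from colonisation status. In tissue RNA of this kind, fewer cells of a type and less RNA per cell cannot be told apart.

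Most neurons of the striatum are GABAergic projection neurons, and they fall into a pair of classes. One class carries the dopamine D1 receptor, encoded by Drd1, whose signal raises cAMP. The other carries the dopamine D2 receptor, encoded by Drd2, which lowers cAMP, together with the adenosine A2a receptor, encoded by Adora2a, and the orphan receptor encoded by Gpr6, which both raise it. Both classes use the phosphatase inhibitor DARPP-32, product of Ppp1r1b, and the protein encoded by Rgs9, which shortens G-protein signals of dopamine receptors. Striatal interneurons and basal forebrain neurons that release acetylcholine make it with choline acetyltransferase, encoded by Chat, from choline that the transporter encoded by Slc5a7 takes up. The amygdala is not free of RNAs of dopamine receptors and DARPP-32, since its central nucleus and intercalated cells hold GABAergic neurons with these proteins. Cholinergic fibres reach it from neurons of the basal forebrain.

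In GENCODE vM21 (GRCm38) the D1 receptor gene Drd1 (ENSMUSG00000021478) lies at chr13:54051183-54055705 on the minus strand. The D2 receptor gene Drd2 (ENSMUSG00000032259) lies at chr9:49340627-49408177 on the plus strand. Adora2a (ENSMUSG00000020178, chr10:75316877-75334784, plus) and Gpr6 (ENSMUSG00000046922, chr10:41069977-41072285, minus) share a chromosome. So do Rgs9 (ENSMUSG00000020599, chr11:109225355-109298129, minus) and Ppp1r1b (ENSMUSG00000061718, chr11:98348404-98357796, plus). Slc5a7 (ENSMUSG00000023945) lies at chr17:54273590-54299034 and Chat (ENSMUSG00000021919) at chr14:32408203-32465989, both on the minus strand. All 8 are annotated as protein-coding. Reads were counted without strand, and the exons of Ppp1r1b share 460 bases with those of 1700003D09Rik on the opposite strand, which had at most 7 counts in a library. The vesicular acetylcholine transporter gene Slc18a3 lies within Chat on the same strand, and their exons share 0 bases.

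RefSeq promoters of build GRCm38.p6 were on hand for 6 of the 8 genes. They are shown because 1 of them, that of Gpr6, holds a motif that few promoters hold. Of the 8 genes, Gpr6 alone also kept a call without the library GF-P1. That call was in the mean response over the 3 colonisation statuses, a contrast chosen after the values were seen. Within a status Gpr6 kept no call without GF-P1. A link between the motif and the level of Gpr6 was not tested. Given here are the 120 bases before the RefSeq start of Gpr6 (chr10:41072291-41072410, minus strand), Drd2 (chr9:49340283-49340402, plus), Rgs9 (chr11:109298182-109298301, minus) and Slc5a7 (chr17:54299035-54299154, minus), 5′ to 3′, with motifs in capitals.
Gpr6: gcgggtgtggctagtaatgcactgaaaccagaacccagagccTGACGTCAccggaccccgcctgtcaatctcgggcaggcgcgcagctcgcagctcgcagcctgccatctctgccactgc
Drd2: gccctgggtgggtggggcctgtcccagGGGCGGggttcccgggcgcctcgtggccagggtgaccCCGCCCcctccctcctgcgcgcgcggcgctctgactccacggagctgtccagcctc
Rgs9: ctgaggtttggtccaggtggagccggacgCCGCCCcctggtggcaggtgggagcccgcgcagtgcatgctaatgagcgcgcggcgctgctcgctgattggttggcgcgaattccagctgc
Slc5a7: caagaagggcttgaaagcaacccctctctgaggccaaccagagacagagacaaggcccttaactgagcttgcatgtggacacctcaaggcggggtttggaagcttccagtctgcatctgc
The motifs searched, on both strands of 250 bases before the start, were the full cAMP response element TGACGTCA, which reads the same on both strands, the GC box GGGCGG and the TATA box TATAAA. These do not overlap each other in the promoters shown. The cAMP response element of Gpr6 begins 78 bases before the start, and 1.55% of 32851 promoters of this length held that motif. A GC box was held by 32.74% of them and a TATA box by 12.37%. Drd2 had GC boxes at 93 and 56 bases before its start and Rgs9 a GC box at 91 and a TATA box at 195. Slc5a7 had a TATA box at 187 bases, outside the stretch shown. The pair of Drd1 promoters held 1 GC box between them, at 133 bases, and that of Chat held none of the 3 motifs. Adora2a and Ppp1r1b have no promoter given here.

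The libraries held 7291810 to 19961958 counts each. Levels are given as CPM, the count scaled to the normalised size of the library, and as RPKM, the same per kilobase of exon, where genes are compared. Over the 40 libraries the median RPKM was 5.63 for Ppp1r1b, 3.74 for Drd1, 1.38 for Rgs9, 1.08 for Gpr6, 0.262 for Adora2a, 0.224 for Drd2, 0.148 for Slc5a7 and 0.0318 for Chat. By median RPKM Drd1, with 75 to 421 counts per library, thus stood well over Drd2 and Adora2a of the D2 class, with medians of 8 and 12 counts. Gpr6, also named for that class, lay between Drd1 and these genes at 1.08 RPKM. The neighbours Rgs9 and Gpr6, Adora2a and Drd2, and Drd2 and Slc5a7 differed in median RPKM by less than or about the spread between libraries. Without GF-P1 the SDs were 0.279 and 0.366 RPKM for Rgs9 and Gpr6, 0.239 for Adora2a, 0.12 for Drd2 and 0.0627 for Slc5a7. Chat was near the limit of detection, with 0 to 8 counts in 39 of the 40 libraries. It had 0 counts in exGF-P1 and exGF-S9, which allows a level of up to 0.33 and 0.182 CPM by a floor of 3 counts. Such limits cover counting error only.

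**Figure D1:**
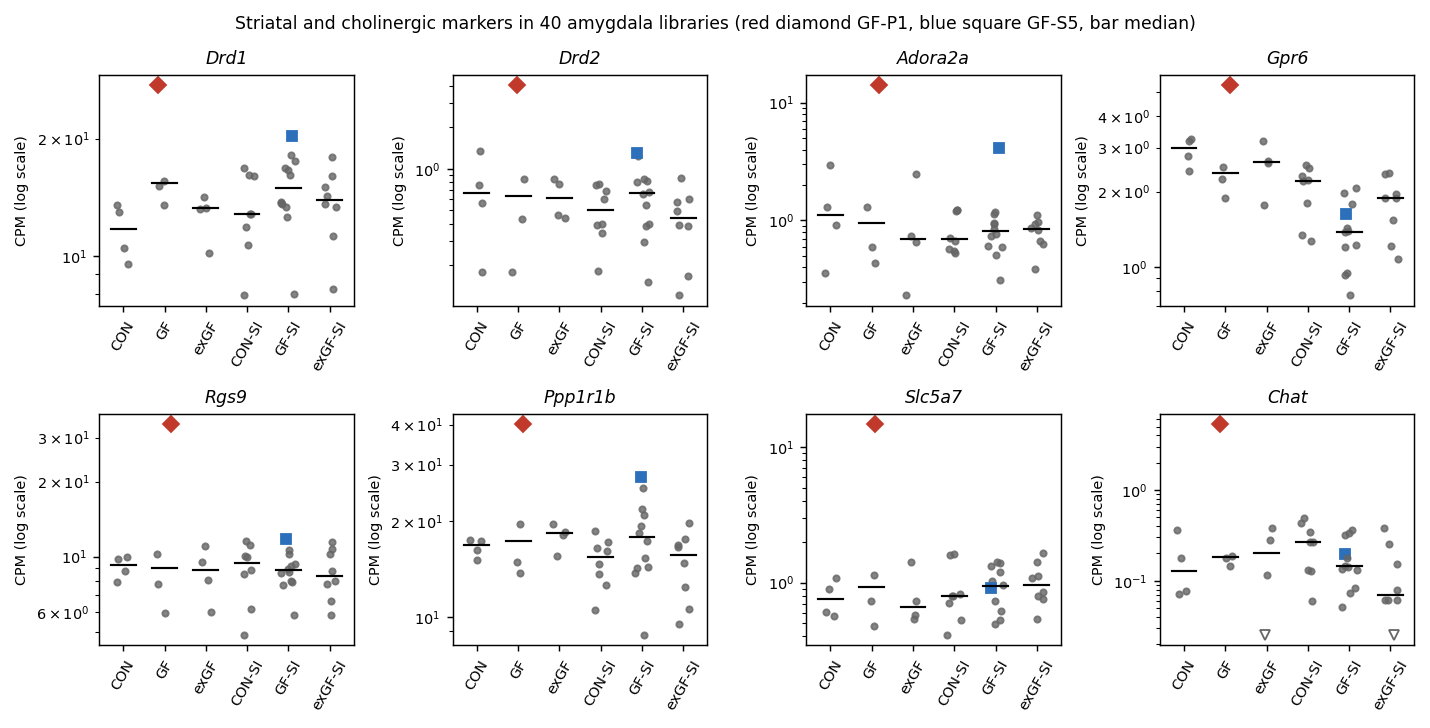
Level of each of the 8 genes (vertical axis, CPM on a log scale) by group (horizontal axis), each library a point and the median of its group a bar. GF-P1 (red diamond) is the highest library in all 8 panels, GF-S5 (blue square) is the next highest for Drd1, Adora2a, Rgs9 and Ppp1r1b, and the 2 libraries with no count of Chat are open triangles at the foot of its panel.

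A single library, the naïve pool GF-P1, stood apart for these genes. It had the highest level of the 40 libraries for 8 of the 8. Summed over the 8 genes it held 145 CPM, while the other 39 libraries held 37.2 to 67.6 CPM with a median of 42.5 CPM. The other 3 GF pools held 39.2 to 48.7 CPM. With 2.62% of all counts of the series, GF-P1 held 44.3% of the counts of Chat, 31.1% of Slc5a7, 28.9% of Adora2a and 16.3% of Drd2. Its shares were 9.65% for Rgs9, 7.28% for Gpr6, 6.41% for Ppp1r1b and 5.22% for Drd1. Each comparison that includes the GF group is therefore given with and without GF-P1. The share of all genes with their highest level in GF-P1 was not counted, so the counts of highest genes here and in the lists below have no such share beside them. Of 14116 genes with a mean of at least 1 CPM, 7 were over 2-fold higher in GF-P1 than in every other library. In CON-P1 24 genes were so.

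For Chat, GF-P1 had 81 counts or 5.28 CPM, and GF-P2, GF-P3 and GF-P4 had 0.145, 0.188 and 0.18 CPM. Slc5a7 stood at 14.7 CPM in GF-P1 and at 0.726, 1.13 and 0.479 CPM in the other pools of GF mice. Adora2a was at 14.1 CPM there, against 0.436, 1.31 and 0.599 CPM. These are the genes with the largest ratios of GF-P1 to the median of the other 39 libraries, 36.3 for Chat, 18.2 for Adora2a and 17.9 for Slc5a7. Drd2 reached 4.04 CPM in GF-P1 and 0.436, 0.845 and 0.18 CPM in the other GF pools. Rgs9 had 33.9 CPM against 5.96, 10.2 and 7.73 CPM. For these genes too the ratio to the median of the other 39 was well over 1, at 7.12 for Drd2 and 3.87 for Rgs9. The ratio was smaller for Gpr6 (2.83), Ppp1r1b (2.44) and Drd1 (2.02). Gpr6 was at 5.34 CPM in GF-P1 and at 2.25, 1.88 and 2.52 CPM in the other 3, Ppp1r1b at 40.1 against 13.7, 19.6 and 14.9 CPM, and Drd1 at 27.4 against 15.6, 13.5 and 15.1 CPM.

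What GF-P1 held over the median of the other 3 GF pools did not follow the usual order of the genes. Per kilobase the surplus was 8.61 RPKM for Ppp1r1b, 4.42 for Adora2a, 4.09 for Rgs9, 3.4 for Drd1, 2.48 for Slc5a7, 1.73 for Gpr6, 1.42 for Drd2 and 1.08 for Chat. Adora2a, 0.196 RPKM in the other GF pools, was thus in surplus by more than Drd1, which stood at 4.16 RPKM there.

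Against the next highest library, GF-P1 was 10.8-fold higher for Chat, 9-fold for Slc5a7, 3.43-fold for Adora2a, 2.99-fold for Drd2 and 2.88-fold for Rgs9. For Gpr6, Ppp1r1b and Drd1 this ratio was 1.65, 1.46 and 1.35. Chat and Slc5a7, the cholinergic genes, thus stood farthest from every other library.

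Many further genes listed for these cell types also had their highest level in GF-P1. How many of all genes did so was not counted, so the counts below have no share beside them. Of 29 further genes of striatal projection neurons in the table (30 were listed), 19 had their highest level there, and their summed level was 1390 CPM against 780 to 1090 CPM in the other 39 libraries. Penk, which encodes enkephalin, was at 136 CPM (median of the others 47.5 CPM), and Tac1, which encodes substance P, at 26.6 CPM (9.44 CPM). Penk is typical of D2 neurons and Tac1 of D1 neurons, and Penk was nearly as high in GF-S5, at 133 CPM. Not all genes of the list were high in GF-P1. The muscarinic M4 receptor gene Chrm4 was at 11.9 CPM (median of the others 14.2 CPM, place 36) and Eya1 at 9.58 CPM (10.8 CPM, place 30). Bcl11b was at 93.4 CPM (94.2 CPM, place 21), Rxrg at 5.28 CPM (4.17 CPM, place 17) and Foxp1 at 134 CPM (117 CPM, place 12). Of 10 further genes of cholinergic neurons, 9 were highest in GF-P1, with a sum of 64.9 CPM against 16 to 27.5 CPM. Lhx8, a transcription factor of cholinergic neurons, had 93 counts in GF-P1 and at most 5 in any other library, and Slc18a3 had 22 counts and at most 3. Of 14 acetylcholine receptor genes, which are expressed by cells that respond to acetylcholine, 0 were highest in GF-P1.

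Marker lists of neighbouring regions moved with these genes in GF-P1. All 6 markers of pallidum and basal forebrain were highest there, with a sum of 68 CPM against 21.9 to 40.4 CPM. The lists are not separate, since Lhx8 and Nkx2-1 are in both this and the cholinergic list and Isl1 is in both the cholinergic and the striatal list. For 8 markers of hypothalamus and thalamus the sum was 16.2 CPM against 2.8 to 9.52 CPM, with 92 counts of Avp and 38 of Oxt, the vasopressin and oxytocin genes. Of these 8, only Avp, Oxt and Tcf7l2 were highest in GF-P1, 1 was at 0 there, and Hdc was at 0.521 CPM, place 30. The 6 genes listed as markers of basolateral amygdala, among them Slc17a7 and Neurod6, were expressed in all libraries. They summed to 702 CPM in GF-P1, place 39 of 40, against 696 to 922 CPM. Slc17a7 alone held 426 CPM of this sum. Tbr1 was at 65.2 CPM (median of the others 60.2 CPM, place 12), and the rest of the list was at places 28 to 37. Markers of central amygdala were at 108 CPM (70.4 to 146 CPM elsewhere), place 13, and those of intercalated cells at 205 CPM (135 to 207 CPM elsewhere), place 2. For general neurons, microglia, astrocytes, oligodendrocytes, endothelium, choroid plexus and cortex, the summed level of GF-P1 lay within the range of the other 39. Within the list of general neuron genes, however, those of GABA synthesis were highest in GF-P1, Gad1 at 264 CPM (median of the others 220.0 CPM) and Gad2 at 227 CPM (125 CPM). The part of neighbouring tissue in the levels of GF-P1 was not tested. Its total of 14707295 counts and its 0.107% of counts in Gm42418, a gene model over the ribosomal RNA repeat, lie within the range of the other libraries.

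**Figure D2:**
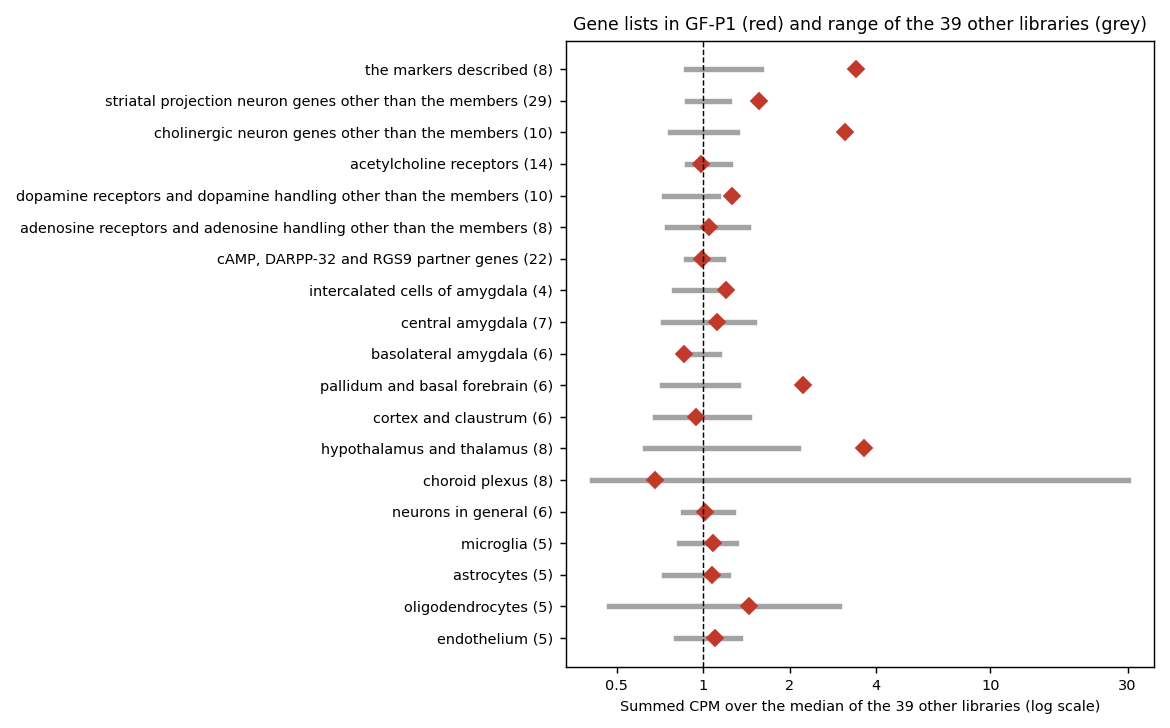
Summed CPM of each gene list in GF-P1 (red diamond) and the range of the other 39 libraries (grey bar), both divided by the median of those 39 (horizontal axis, log scale, dashed line at 1), with the number of genes of each list in brackets. GF-P1 lies beyond the other libraries for the 8 markers described, the further striatal and cholinergic genes, the dopamine genes, pallidum and basal forebrain, and hypothalamus and thalamus, and within their range for the other lists.

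GF-S5, of 1 animal of the GF-SI group, was next in order. It had the highest level of the other 39 libraries for 4 of the 8 genes, at 20.3 CPM for Drd1, 4.12 CPM for Adora2a, 11.8 CPM for Rgs9 and 27.4 CPM for Ppp1r1b. Its sum over the 8 was 67.6 CPM, place 2 of 40, and the further striatal genes summed to 1090 CPM, also place 2. The cholinergic genes were not high in GF-S5: Slc5a7 was at 0.915 CPM and Chat at 0.196 CPM, close to the medians of GF-SI of 0.936 and 0.143 CPM. Its markers of pallidum and basal forebrain summed to 26.3 CPM, place 33. The further cholinergic genes summed to 24.2 CPM, place 7. Markers of central amygdala summed to 132 CPM (place 4), of intercalated cells to 201 CPM (place 5) and of basolateral amygdala to 719 CPM (place 35). Gpr6 was at 1.63 CPM in GF-S5, over the median of 1.39 CPM of GF-SI and within the range of that group, 0.769 to 2.07 CPM. It was under the median of 1.89 CPM of the libraries other than GF-P1, which include naïve pools. GF-P1 and GF-S5 thus shared high levels of several striatal genes, and not of Gpr6, Slc5a7 or Chat.

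Over the 40 libraries, log2 CPM of the 28 pairs of these genes correlated with Pearson's r of 0.096 to 0.7 (median 0.335). Without GF-P1, r ranged from -0.4 to 0.45, with a median of 0.0255. Of the 28 pairs, 10 had an adjusted p (permutation test with 100000 resamples, two-sided, BH over the pairs) under 0.05 for r and 0 for Spearman's rho, and 6 had an r over 0.5 with all libraries and 0 without GF-P1. The highest r was that of Adora2a and Rgs9, 0.7 (adjusted permutation p = 0.00056), with a rho of 0.478 (adjusted permutation p = 0.0504). It fell to 0.45 without GF-P1 and to 0.395 without GF-P1 and GF-S5, the libraries farthest from the median of Adora2a. Within groups r was 0.612 (CON-SI), 0.28 (GF-SI) and 0.287 (exGF-SI), and the naïve groups with 4 libraries are too small for a value. For Rgs9 and Slc5a7, r was 0.676 (adjusted permutation p = 0.00756), rho 0.374 (adjusted permutation p = 0.13), and r without GF-P1 and CON-S2 was 0.223. For Slc5a7 and Chat, the pair of cholinergic genes, r was 0.437 with all libraries and -0.112 without GF-P1, and rho was 0.00657. Drd1 and Drd2 had an r of 0.558 (adjusted permutation p = 0.00205) and a rho of 0.406 (adjusted permutation p = 0.0901), and kept an r of 0.426 without GF-P1 and of 0.435 without GF-P1 and CON-S3. Within groups their r was 0.498 (CON-SI), 0.774 (GF-SI) and 0.67 (exGF-SI). For Drd2 and Adora2a, r was 0.579 and 0.384 without GF-P1, with a rho of 0.448 and 0.404, while within groups r was -0.0994 (CON-SI), 0.407 (GF-SI) and -0.185 (exGF-SI).

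**Figure D3:**
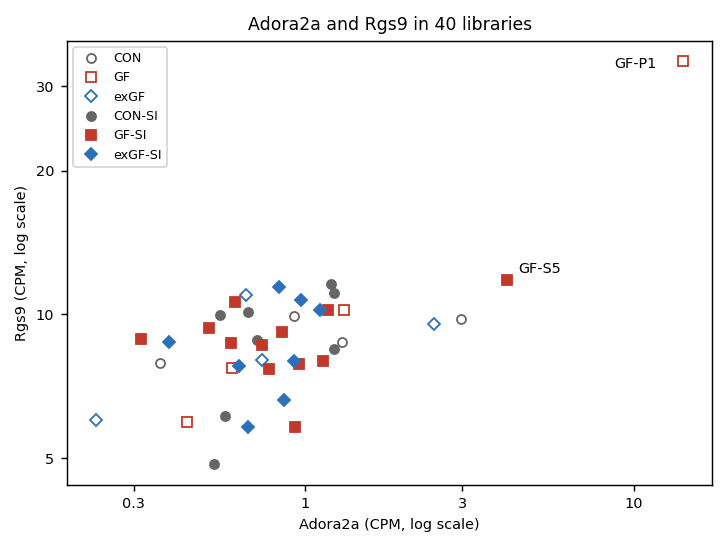
Level of Rgs9 (vertical axis, CPM on a log scale) against that of Adora2a (horizontal axis, CPM on a log scale), 1 point per library, open for naïve and filled for SI groups, with grey circles for CON, red squares for GF and blue diamonds for exGF. GF-P1 lies alone at 14.1 and 33.9 CPM, and the other 39 libraries lie at up to 4.12 CPM of Adora2a and 11.8 CPM of Rgs9.

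The 3 genes with the pattern most like that of each were sought among the 14116 genes whose mean over all 40 libraries reached 1 CPM, where Drd2 and Chat are not included and Adora2a and Slc5a7 are so only through GF-P1. Adora2a was most like Rgs9 (r = 0.7), Slc5a7 was most like Rgs9 (r = 0.676), Rgs9 was most like Cacna2d2 and Adora2a (both r = 0.7), and Chat had Rgs9 in the second place (r = 0.555). Drd1, Drd2, Gpr6 and Ppp1r1b had none of the others of the 8 in these places. Without GF-P1 none of the 8 had another of them there. Adora2a was then most like Sall2 (r = 0.654), Rgs9 most like Kctd8 (r = 0.661), Slc5a7 most like Ttll5 (r = 0.628) and Chat most like Shmt2 (r = 0.498). Without GF-P1 Drd1 was most like Mum1l1 (r = 0.846), Tenm1 and Frem3, Ppp1r1b most like Cdh22 (r = 0.715) and Drd2 most like Tll1 (r = 0.721). Gpr6 was most like Foxp4 both with GF-P1 (r = 0.673) and without it (r = 0.662). These values describe 40 or 39 libraries that share depth and dissection, and genes are not independent of each other.

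Between naïve groups, GF mice were first compared with CON mice, which differ from them in colonisation status and in breeding stock. None of the 6 genes tested passed the threshold (edgeR adjusted p at most 0.1), where 0.142% of all genes did. Slc5a7 and Chat did not pass the filter on low counts. All 6 were higher in GF by their log2(fold-change), with a median of 0.65, and without GF-P1, where 0.113% of all genes passed and again none of the 6, 5 of 6 were lower, with a median of -0.285. The exception was Drd1. It was at 13.5, 13.0, 9.53 and 10.5 CPM in CON-P1 to CON-P4 and at 27.4, 15.6, 13.5 and 15.1 CPM in GF-P1 to GF-P4. The lowest GF library and the highest CON library thus met at 13.5 CPM. Its log2(fold-change) was 0.64 ± 0.215 (SE, edgeR adjusted p = 0.329), and 0.36 ± 0.146 without GF-P1 (edgeR adjusted p = 0.355). Adora2a went from 1.51 ± 0.959 to -0.96 ± 0.573 when GF-P1 was left out, and Drd2 from 0.86 ± 0.792 to -0.75 ± 0.589.

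For exGF over CON, 0 of 5 genes tested passed (0.104% of all genes), with a smallest adjusted p of 0.956. For exGF over GF, 0 of 5 passed, with 0.0% of all genes. All 5 were then lower in exGF, with a median of -0.5, and without GF-P1 1 of 5 was, with a median of 0.17. CON and exGF had no library of the height of GF-P1. In CON-P1 to CON-P4 Adora2a was at 0.36, 1.29, 2.97 and 0.922 CPM, and in exGF-P1 to exGF-P4 at 0.66, 0.231, 2.46 and 0.737 CPM. CON-P3 and exGF-P3 were the highest of their groups. Slc5a7 was at 1.08, 0.609, 0.899 and 0.568 CPM in the 4 CON and at 1.43, 0.579, 0.539 and 0.737 CPM in the 4 exGF libraries, without the high values of CON-P3 and exGF-P3 for Adora2a.

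The response of GF mice to social interaction, GF-SI over GF, gave the most calls: 3 of the 7 genes tested fell, where 5.86% of all genes fell and 13.7% passed in either direction. Slc5a7 was lower by a log2(fold-change) of -2.18 ± 0.568 (SE, edgeR adjusted p = 0.0261), Adora2a by -1.97 ± 0.652 (edgeR adjusted p = 0.0689) and Gpr6 by -1.11 ± 0.258 (edgeR adjusted p = 0.0142). All 7 had a negative log2(fold-change), with a median of -1.06, beside -0.00993 for all genes. Without GF-P1, 0 of the 7 passed, where 4.47% of all genes fell and 10.5% passed, and 6 of the 7 were positive, with a median of 0.17. Slc5a7 was then at 0.33 ± 0.352 (edgeR adjusted p = 0.639) and Adora2a at 0.49 ± 0.617 (edgeR adjusted p = 0.706). In the 12 GF-SI libraries Slc5a7 ranged from 0.496 to 1.42 CPM (median 0.936) and Adora2a from 0.315 to 4.12 CPM (median 0.812). The GF pools other than GF-P1, at 0.479 to 1.13 CPM and 0.436 to 1.31 CPM, overlapped with them.

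The other genes did not pass in this comparison. Drd2 was at -1.06 ± 0.551 (edgeR adjusted p = 0.25), and at 0.53 ± 0.551 without GF-P1. Rgs9 was at -0.70 ± 0.293 (edgeR adjusted p = 0.147) and at 0.17 ± 0.171 without GF-P1. It passed in 1 fit over the 6 groups (-0.70, edgeR adjusted p = 0.0597, where 6.71% of all genes fell) and without GF-P2 (-0.96) or GF-P4 (-0.92), and Drd2 passed without GF-P4 (-1.45). Drd1 was at -0.26 ± 0.189 and Ppp1r1b at -0.30 ± 0.258, and without GF-P1 at 0.02 ± 0.183 and 0.16 ± 0.241. Chat was left out by the filter on low counts. With no filter it stood at -2.99 ± 0.657 (edgeR adjusted p = 0.0146), where 1.98% of all genes fell, and the GF pools other than GF-P1, at 0.145 to 0.188 CPM, lay within the 0.0508 to 0.364 CPM of GF-SI.

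**Figure D4:**
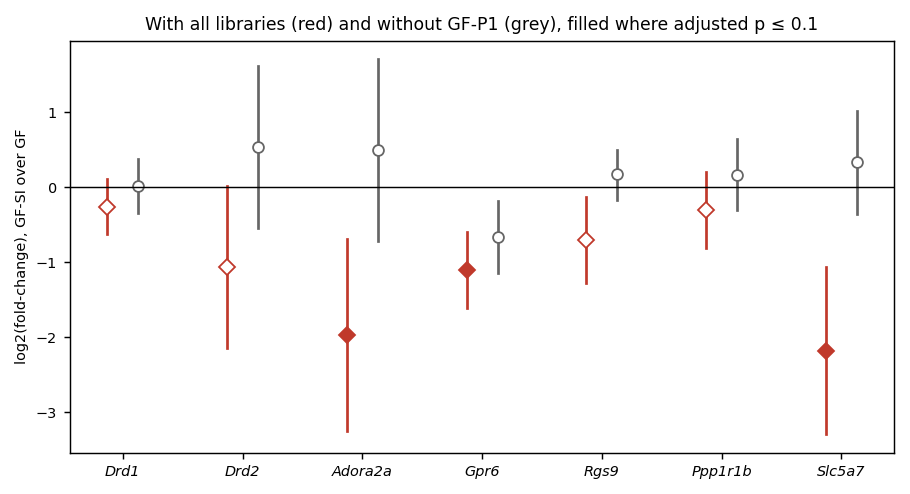
log2(fold-change) of GF-SI over GF (vertical axis) for the 7 genes tested, with all libraries (red) and without GF-P1 (grey), with lines for 95% intervals and filled symbols where the edgeR adjusted p was at most 0.1. Slc5a7, Adora2a and Gpr6 pass with all libraries, and without GF-P1 Gpr6 alone remains under 0, at -0.67, and does not pass.

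Gpr6 had a negative log2(fold-change) after social interaction in each colonisation status, with or without GF-P1, although within a status it passed the threshold in GF-SI with all libraries alone. It was at 3.24, 3.20, 2.79 and 2.41 CPM in CON-P1 to CON-P4, and at 1.27 to 2.56 CPM (median 2.21) in the 8 CON-SI libraries. In GF-P1 to GF-P4 it was at 5.34, 2.25, 1.88 and 2.52 CPM, and in the 12 GF-SI libraries at 0.769 to 2.07 CPM (median 1.39). In exGF-P1 to exGF-P4 it was at 3.19, 2.66, 1.77 and 2.61 CPM, and in the 8 exGF-SI libraries at 1.08 to 2.38 CPM (median 1.88). Of the CON-SI libraries 6 of 8 lay under every CON pool, of the GF-SI libraries 10 of 12 under every GF pool, and of the exGF-SI libraries 3 of 8 under every exGF pool, so that the ranges overlapped in each status. These levels rest on 7 to 82 counts per library.

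The log2(fold-change) of Gpr6 was -0.52 ± 0.214 in CON-SI over CON (edgeR p = 0.0292, adjusted p = 0.245). It was -0.51 ± 0.234 in exGF-SI over exGF (edgeR p = 0.0439, adjusted p = 0.225) and -0.67 ± 0.248 in GF-SI over GF without GF-P1 (edgeR p = 0.0149, adjusted p = 0.122), so that only GF-SI with all libraries passed. DESeq2 gave GF-SI an adjusted p of 0.00312 with all libraries, where 5.97% of all genes fell, and of 0.103 without GF-P1, where 5.1% fell. The responses of GF and CON mice differed by -0.59 ± 0.344 (edgeR adjusted p = 0.412), and by -0.15 ± 0.327 without GF-P1.

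The mean of the 3 responses, a contrast chosen after these values were seen, was -0.71 ± 0.142 for Gpr6 (edgeR adjusted p = 0.000333), a fold of 0.611. In this contrast 2 of the 7 genes tested fell, where 12.2% of all genes fell and 26.7% passed in either direction. Without GF-P1 that of Gpr6 was -0.56 ± 0.132 (edgeR adjusted p = 0.00241), and 10.7% of all genes fell and 23.9% passed. It passed with each of the 40 libraries left out in turn, at -0.76 to -0.56. Without the 5 libraries in which Gm42418 took over 5% of the counts, all but 1 of them naïve pools of CON or exGF, it was -0.64 ± 0.177 (edgeR adjusted p = 0.0127). The share of all genes that passed in this run is not given here. It left CON-P2 and CON-P4 as the naïve CON pools, and exGF-P3 and exGF-P4 as the naïve exGF pools. The pools left out included CON-P1 and exGF-P1, the highest of their groups for Gpr6. Within the statuses Gpr6 was then at -0.47 ± 0.28 for CON-SI and -0.32 ± 0.32 for exGF-SI. The other gene was Adora2a, at -1.06 ± 0.367 (edgeR adjusted p = 0.037), which did not pass without GF-P1 (-0.24 ± 0.303), without CON-P3 (-0.85 ± 0.39) or without exGF-P3 (-0.76 ± 0.403), the highest pool of each status.

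**Figure D5:**
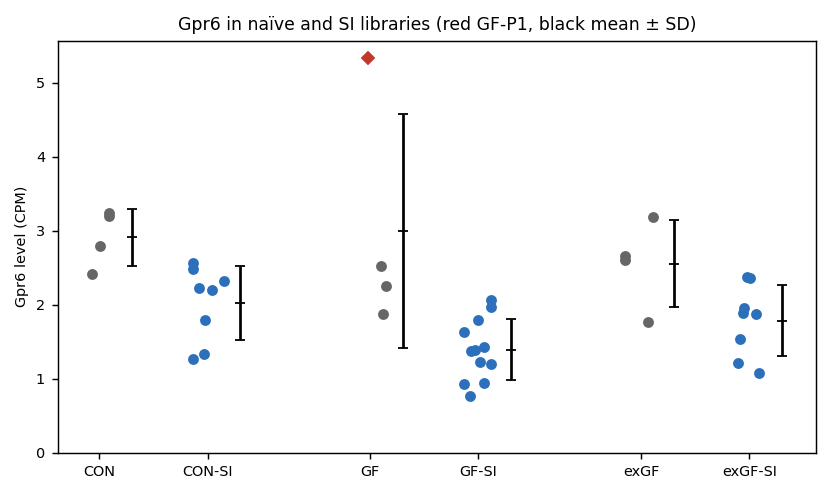
Level of Gpr6 (vertical axis, CPM) in naïve libraries (grey, GF-P1 as a red diamond) and after social interaction (blue) of each colonisation status, 1 point per library, with the mean ± SD in black. The mean was lower in CON-SI (2.02) than in CON (2.91), in GF-SI (1.39) than in GF (3.0, or 2.22 without GF-P1) and in exGF-SI (1.79) than in exGF (2.56).

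In CON-SI over CON, 0 of 7 genes passed (3.72% of all genes) and in exGF-SI over exGF 0 of 6 (7.61%). In CON-SI Adora2a was at -0.80 ± 0.406 (edgeR adjusted p = 0.344) and Drd2 at -0.54 ± 0.418 (edgeR adjusted p = 0.555), both farther from 0 than Gpr6 and with larger errors, while Drd1 was at 0.18 ± 0.181 and Rgs9 at -0.05 ± 0.201. In exGF-SI, Adora2a was at -0.41 ± 0.423, Ppp1r1b at -0.29 ± 0.164 and Rgs9 at 0.00 ± 0.189. The 95% interval of Rgs9 ran from -0.44 to 0.35 in CON-SI and from -0.37 to 0.37 in exGF-SI, so that smaller changes could not be resolved. Slc5a7 was at 0.26 ± 0.392 and 0.36 ± 0.341 in these comparisons.

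The SI groups, without pools and without GF-P1, gave no call. In GF-SI over CON-SI, 0 of 7 genes passed (1.10% of all genes), and the smallest adjusted p was that of Gpr6, -0.52 ± 0.183 (edgeR p = 0.00894, adjusted p = 0.187). Its GF-SI median of 1.39 CPM was the lowest of the 6 groups, followed by exGF-SI at 1.88 CPM, and the ranges of these groups overlapped. Drd1 was at 0.19 ± 0.143, Ppp1r1b at 0.26 ± 0.159 and Slc5a7 at 0.08 ± 0.26. In exGF-SI over CON-SI, 0 of 6 passed (1.31% of all genes), with a smallest adjusted p of 0.728. In exGF-SI over GF-SI, 0 of 7 passed (0.0995%), with Gpr6 at 0.34 ± 0.189 (edgeR adjusted p = 0.454).

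For each of the 8 genes, the ranges of groups next to each other in the order of their medians overlapped. The median of Drd1 was highest in GF (15.4 CPM) and lowest in CON (11.8 CPM), that of Ppp1r1b went from 18.3 CPM in exGF to 15.3 CPM in CON-SI, and that of Rgs9 from 9.40 CPM in CON-SI to 8.37 CPM in exGF-SI. Drd2 had medians of 0.443 to 0.671 CPM and Slc5a7 of 0.658 to 0.966 CPM.

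Differences between the responses to social interaction were tested in 1 fit over the 6 groups. None of the 7 genes passed for GF over CON (0.0931% of all genes), exGF over GF (0.0%) or exGF over CON (0.0%). The smallest adjusted p was that of Slc5a7 for GF over CON, -2.43 ± 0.778 (edgeR adjusted p = 0.134), which was 0.08 ± 0.527 without GF-P1 (edgeR adjusted p = 0.969). Without GF-P1 again none of the 7 passed in these contrasts, where 0.675%, 0.0% and 0.00614% of all genes did, in the same order. Slc5a7 passed for GF over CON without GF-P4 (-2.81 ± 0.709) or without CON-S7 (-2.45 ± 0.798).

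Other genes of the pathways were followed by lists. Over all genes 13.7% passed in GF-SI over GF, 3.72% in CON-SI over CON, 7.61% in exGF-SI over exGF and 26.7% in the mean of the 3 responses, where 12.2% fell. Without GF-P1 these shares were 10.5% in GF-SI and 23.9% in the mean, where 10.7% fell. Of 29 further striatal projection neuron genes, 25 were tested in GF-SI over GF and 2 fell, the phosphodiesterase gene Pde1b (-0.36 ± 0.119, edgeR adjusted p = 0.0652) and Sh3rf2 (-1.62 ± 0.459, edgeR adjusted p = 0.0378). Without GF-P1 neither passed, at -0.29 ± 0.132 and -0.62 ± 0.456, and the median of the list went from -0.173 to 0.0317. In CON-SI 1 of 25 fell, Actn2 (-0.90 ± 0.254, edgeR adjusted p = 0.094). In exGF-SI 1 rose and 2 fell, and those that fell were Eya1 (-0.41 ± 0.113) and the G-protein subunit gene Gng7 (-0.43 ± 0.122). In the mean of the 3 responses 1 of 26 rose and 8 fell, with a median of -0.158 beside -0.00718 for all genes, and without GF-P1 1 rose and 6 fell, with a median of -0.119. Among those that fell were Gng7 (-0.42 ± 0.107, and -0.34 ± 0.105 without GF-P1) and the retinoic acid receptor gene Rarb (-0.39 ± 0.102, and -0.33 ± 0.102).

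Of 10 further cholinergic genes only 3 passed the filter on low counts. Ache, which encodes acetylcholinesterase, fell in GF-SI (-0.47 ± 0.138, edgeR adjusted p = 0.0439) and not without GF-P1 (-0.24 ± 0.123, edgeR adjusted p = 0.268). In the mean of the 3 responses it fell with and without GF-P1, by 0.31 and 0.24 on the log2 scale, and Ngfr fell with all libraries (-0.80 ± 0.275) and did not pass without GF-P1 (-0.34 ± 0.234). Of the acetylcholine receptor genes 0 of 10 passed in GF-SI, and in the mean of the 3 responses 0 of 11 passed. Without GF-P1 Chrm2 rose (0.54 ± 0.229, edgeR adjusted p = 0.0986).

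Of 10 further dopamine genes 5 were tested in GF-SI and 0 passed. In the mean of the 3 responses Maoa, Ddc and the dopamine D5 receptor gene Drd5 fell, of which Maoa, which encodes a monoamine oxidase, also did so without GF-P1 (-0.17 ± 0.0504, and -0.17 ± 0.0532). Of the adenosine genes the A1 receptor gene Adora1 rose in CON-SI and exGF-SI and in the mean of the 3 responses (0.33 ± 0.0901, edgeR adjusted p = 0.0077), and likewise without GF-P1 (0.34 ± 0.0946). In GF-SI it was at 0.08 ± 0.166, and the responses of GF and CON mice differed by -0.49 ± 0.215, which did not pass (edgeR adjusted p = 0.261). Of 22 partner genes of cAMP signalling, DARPP-32 and RGS9, 21 were tested and 3 passed in GF-SI, a share close to the 13.7% of all genes: Ppp1cb rose (0.24 ± 0.0805), and Pde1b and the protein kinase A gene Prkaca (-0.20 ± 0.0723) fell, and none of them passed without GF-P1. Pde1b, Gng7, Adcy5, Gnal and Pde10a are in both this list and the striatal one. In the mean of the 3 responses 3 rose and 4 fell, among them Prkaca (-0.18 ± 0.0382, edgeR adjusted p = 0.000775), which also passed without GF-P1 (-0.17 ± 0.0398).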

How the data were processed

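The authors sequenced stranded, ribodepleted RNA with paired reads of 100 bases and, per the labels and the methods, used CASAVA, Trimmomatic 0.32, STAR 2.4.0f1 on GRCm38.p3 and HTSeq 0.6.0 with gene models of Ensembl release 78, without regard to strand. The deposited values are whole counts of read pairs per gene, not scaled. The methods name Vertis for library preparation and Beckman Coulter for sequencing, while the labels name both for preparation.

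Columns were assigned to groups by the condition in their names, which cannot be tied to single sample records. Totals were 7291810 to 19961958 counts per library, which sets the counting error of low genes. Symbols, exon lengths and positions came from GENCODE vM21, with 42462 of 43629 genes named. No libraries were identical, and libraries of a group differed with a chi-square per degree of freedom of at least 7.8. Nothing ties most libraries to litters or cages, so p-values reflect variation among these libraries.

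Counts were scaled by TMM, filtered with filterByExpr and compared in pairs with the quasi-likelihood test of edgeR 4.0.16 (R 4.3.3), with BH adjustment over all genes tested and a threshold of 0.1. DESeq2 1.42.0, RLE scaling, no filter, 1 fit over the 6 groups, runs without libraries rich in ribosomal RNA, without ribosomal and mitochondrial RNA genes, and without each library in turn were alternatives. DESeq2 without GF-P1 and the mean of the 3 responses were added after seeing the data. The scripts were checked on simulated counts. Correlations used log2 CPM with a prior count of 0.5, with numpy 2.4.6 and scipy 1.17.1. The members, lists and alternatives were chosen with earlier results of these data known. Named are all 8 members, up to 4 genes of each list with the smallest p in a comparison, and the 3 genes most like each member. Genes named for their level in GF-P1 were chosen after their values were seen. Of the striatal list, the values of 1 gene are not reported here, and it is included in the counts.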

Additional observations from a re-analysis of the deposited data

Results flagged for a closer look

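Within the groups of 4 to 8 libraries, 40 sets of values (8 genes in 5 groups) were searched for a library far from the rest, and 5 held one by Dixon's test at the 95% level. Chance gives such a library in about 1 of 20 sets where the sets are independent. These sets share libraries, and the genes were chosen with earlier results of these data known. The 5 therefore cannot be set against that rate. All 5 were GF-P1 in the GF group: Drd1 at 27.4 CPM (next library 15.6), Adora2a at 14.1 CPM (1.31), Rgs9 at 33.9 CPM (10.2), Slc5a7 at 14.7 CPM (1.13) and Chat at 5.28 CPM (0.188). The distance to the next library took 0.85, 0.936, 0.847, 0.955 and 0.992 of the range of the group, in the same order. Drd2, Gpr6 and Ppp1r1b were also highest in GF-P1 and did not reach the critical value.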

How the results depend on the processing

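The 84 log2 fold changes gave 2351 values under the alternatives. Of these, 2260 kept their call or, where not called, stayed within their error. Another 66 values that were not called moved by more than their error, 15 passed only under the alternative, 6 no longer passed, and 4 values of called genes turned in sign. Those that turned were Adora2a and Slc5a7 in GF-SI over GF without GF-P1, at 0.49 and 0.33 by edgeR and 0.47 and 0.35 by DESeq2. Over libraries left out in turn Adora2a ranged from -2.42 to 0.49 and Slc5a7 from -2.56 to 0.33. The number of genes called in GF-SI over GF was 3 in the main test, 1 by DESeq2, which gave Adora2a, Slc5a7 and Chat no adjusted p, and 0 by DESeq2 without GF-P1. Over libraries left out in turn it was 0 (without GF-P1) to 5 (without GF-P4). For the difference of the responses of GF and CON mice it was 0 to 1, the 1 being Slc5a7 without GF-P4 or CON-S7. For the mean of the 3 responses it was 2, with 1 to 3 over libraries left out, 1 of these without CON-P3, GF-P1 or exGF-P3, and 1 by DESeq2 without GF-P1. In the other 10 comparisons it was 0 under every setting run. The median r of the 28 pairs was 0.335, and 0.0255 without GF-P1. No paired analysis was possible because the column names carry no number that links libraries to the replicate numbers of the labels or to animals. At this depth Chat, and in naïve groups Drd2, Adora2a and Slc5a7, rest on few counts. Whether differences of the size seen for Gpr6 could be detected in these genes was not tested, so the lack of a call does not show a lack of change.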
